A study of Mus musculus with 6 samples.

Results

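Bone marrow-derived macrophages (BMDMs) treated with zoledronic acid (ZA) were examined for the 10 genes that code for the enzymes of fatty acid synthesis, elongation and desaturation, Acly, Acss2, Acaca, Fasn, Elovl5, Elovl6, Scd1, Scd2, Fads1 and Fads2. The members were found by their gene symbols in the deposited expression table, which holds 35434 genes, and all 10 were present. In the study, macrophages were grown from the femoral bone marrow of C57BL/6 mice with macrophage colony-stimulating factor (M-CSF, 10 ng/ml for 7 days), and RNA was sequenced from 3 untreated libraries (Ctrl 1 to 3) and from 3 libraries taken 12 h after ZA stimulation (ZA 1 to 3). The labels give no genetic change in either group, and the groups differ, as far as the labels say, in ZA alone. ZA is a nitrogen-containing bisphosphonate, a bone-targeted drug that inhibits farnesyl diphosphate synthase of the mevalonate pathway, and its concentration for these libraries is not given in the sources used here. The labels do not say that the libraries came from separate cultures or mice, so that p-values measure only the spread between these samples, which may be technical. Expression is given as FPKM, the fragments of a gene per length of gene and per size of library, and differences are on the log2(FPKM + 1) scale.

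Fatty acids are built in the cytosol from acetyl-CoA, which ATP citrate lyase (Acly) makes from exported citrate and acetyl-CoA synthetase (Acss2) from acetate. Acetyl-CoA carboxylase (Acaca) makes malonyl-CoA, fatty acid synthase (Fasn) condenses it into palmitate, elongases of the endoplasmic reticulum (Elovl5, Elovl6) lengthen the chain, and desaturases insert double bonds, Scd1 and Scd2 into saturated and Fads1 and Fads2 into polyunsaturated chains. The pathway is driven by SREBP-1 (Srebf1) and the oxysterol receptors LXR (Nr1h3, Nr1h2), and in macrophages it supplies membrane lipids and precursors of lipid mediators.

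The libraries held between 41230600 and 42155808 fragments, and no library of a group duplicated another. Macrophage markers were high in all libraries, with a mean FPKM of 22699 for Lyz2. A higher mean in ZA was found in 7 of 8, as in 56.9% of all genes tested. Csf1r, Adgre1, Cd68 and Cd14, 4 of 8, had every ZA library above every Ctrl library, as did 11.4% of all genes tested. The step from the highest Ctrl to the lowest ZA library was 6.14% for Csf1r and 5.36% for Adgre1. For Cd68 it was 0.253% and for Cd14 0.0025%, so that these 2 groups nearly met. Every adipocyte marker was at or near 0, with Plin1, Lep and Retn at 0 in all 6. The summed FPKM of the 8 neutrophil and progenitor markers was 32.5 to 47.5 in Ctrl and 29.4 to 34.4 in ZA, with Ly6g at 0. All 5 of these markers tested had a lower mean in ZA, Ngp, Elane and Mpo without overlap between the groups. Of all genes tested, 6.76% had every ZA library below every Ctrl library. The summed FPKM of the 6 stromal cell markers was 18.3 to 32.8 in Ctrl and 16.6 to 23.6 in ZA, with 4 of 4 tested lower in mean, and that of the 6 lymphocyte markers was 0.665 to 1.08 and 0.438 to 0.905. The part of these cells in the results was not tested, and in bulk RNA fewer cells of a type and less RNA per cell cannot be told apart.

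The promoters of the members come first, as the sequences that the factors of this pathway read. RefSeq promoters on GRCm38.p6, from 250 bases before to 50 after the start site, were given for 7 of the 10 genes. Scd1, Scd2 and Fads1 had none. The promoters of Fasn, which rose in ZA, of Acss2 and Fads2, which had the largest differences among the members, and of Elovl5, which had the smallest, are given 5′ to 3′ with the CCAAT box (CCAAT), the GC box (GGGCGG) and the E-box (CACGTG) in capitals, on either strand. They lie at chr11:120824498-120824797 (minus strand) for Fasn, chr2:155517793-155518092 (plus strand) for Acss2, chr19:10101454-10101753 (minus strand) for Fads2 and chr9:77917115-77917414 (plus strand) for Elovl5.
Fasn: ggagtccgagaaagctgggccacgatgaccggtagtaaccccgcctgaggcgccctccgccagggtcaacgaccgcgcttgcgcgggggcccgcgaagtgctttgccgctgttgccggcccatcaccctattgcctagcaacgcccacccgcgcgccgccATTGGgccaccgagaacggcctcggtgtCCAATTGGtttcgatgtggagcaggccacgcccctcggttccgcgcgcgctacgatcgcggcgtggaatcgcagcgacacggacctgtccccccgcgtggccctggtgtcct
Acss2: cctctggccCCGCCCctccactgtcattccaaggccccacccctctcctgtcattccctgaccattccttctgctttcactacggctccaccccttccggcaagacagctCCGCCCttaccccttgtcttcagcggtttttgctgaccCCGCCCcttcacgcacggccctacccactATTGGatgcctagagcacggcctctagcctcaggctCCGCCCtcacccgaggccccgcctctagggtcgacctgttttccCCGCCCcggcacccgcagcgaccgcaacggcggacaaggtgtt
Fads2: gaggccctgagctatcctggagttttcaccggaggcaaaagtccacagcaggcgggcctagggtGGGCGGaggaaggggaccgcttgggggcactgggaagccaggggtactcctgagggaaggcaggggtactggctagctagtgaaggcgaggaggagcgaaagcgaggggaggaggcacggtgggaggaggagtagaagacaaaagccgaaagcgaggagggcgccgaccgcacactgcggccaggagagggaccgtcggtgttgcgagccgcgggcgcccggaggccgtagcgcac
Elovl5: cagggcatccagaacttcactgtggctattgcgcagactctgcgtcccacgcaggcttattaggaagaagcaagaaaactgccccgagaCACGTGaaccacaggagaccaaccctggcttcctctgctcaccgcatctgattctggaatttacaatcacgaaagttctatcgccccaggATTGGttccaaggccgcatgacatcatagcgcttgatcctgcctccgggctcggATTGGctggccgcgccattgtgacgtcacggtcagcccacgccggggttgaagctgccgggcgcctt

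The 4 promoters differed in these letters. Fasn held 3 CCAAT boxes, at -90 to -86, -62 to -58 and -59 to -55 from the start site (counted as +1), and the last 2 overlap on opposite strands. Acss2 held 1 CCAAT box at -73 to -69 and 5 GC boxes, while Fads2 held a single GC box and no CCAAT box. Elovl5 held 2 CCAAT boxes and an E-box at -161 to -156. Among the members not shown, Acly held 1 CCAAT box and 4 GC boxes, and the windows of Acaca and Elovl6 held none of the 3 motifs. The Acaca window has letters like those of a splice site (tttttcccatag) directly before its start site. It may therefore not be a promoter, and its lack of motifs says nothing of how Acaca is controlled. It is kept in the counts that follow.

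The CCAAT box, the site of the factor NF-Y, was thus found in 4 of 7 member promoters and in 37.4% of the 32851 RefSeq promoters of this length. The GC box, the site of Sp1, was found in 3 of 7 and in 35.7% of all promoters, or 63.8% of those of the genes tested. The E-box was found in 1 of 7 and in 7.15% of all promoters, or 10.5% of those of the genes tested. The sterol regulatory element searched (TCACNCCAC, 1.24% of all promoters) and the LXR-type direct repeat (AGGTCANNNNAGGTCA, 0.0152%) matched no member promoter, which says only that these letters are not in these windows. For comparison, 15 of 16 promoters of sterol synthesis genes and 8 of 18 of fatty acid oxidation genes held a CCAAT box. A GC box was in 14 of 16 and 15 of 18, and an E-box in 3 of 16 and 0 of 18. The sterol regulatory element searched matched 1 of 16 and 1 of 18. It was thus rare in the sterol list too, and its absence does not set the members apart. The matches are descriptions and not tested sites.

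In Ctrl BMDMs the 10 members covered a wide range of expression per length, with a ratio of 42.7 between the highest and the lowest mean FPKM. Fads1, Scd2, Acly and Elovl5 were highest, followed by Fasn, Fads2, Scd1, Acaca, Acss2 and Elovl6. The ranges of neighbours in this order did not meet, except that Scd1 (3.47 to 4.33) and Acaca (3.36 to 3.51) overlapped in Ctrl. In ZA the order was the same but for Acss2 (3.54 to 3.94) and Acaca (3.40 to 3.78), whose ranges overlapped. Together the members took between 31488 and 32183 fragments of a library in Ctrl and between 34669 and 36541 in ZA, so that all 3 ZA libraries were above all 3 Ctrl libraries.

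All 9 members tested, those with a mean FPKM of at least 1, had a higher mean in ZA, where 56.9% of the 9800 genes tested did. Fasn and Scd2 passed limma's test at a Benjamini-Hochberg adjusted p of 0.05, and so rose, while 0.367% of all genes tested passed in either direction, 0.204% of them higher and 0.163% lower. With no adjustment of p, 6 members were under 0.05, all of them higher, where 12.3% of all genes tested were in either direction, 7.5% higher and 4.85% lower. The same 6, Acly, Acss2, Fasn, Scd1, Scd2 and Fads2, had every ZA library above every Ctrl library, as did 11.4% of all genes tested, and none had every ZA library below, as did 6.76%. The median difference of the 9 members was 0.20 on the log2 scale, against 0.010 over all genes tested.

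**Figure D1:**
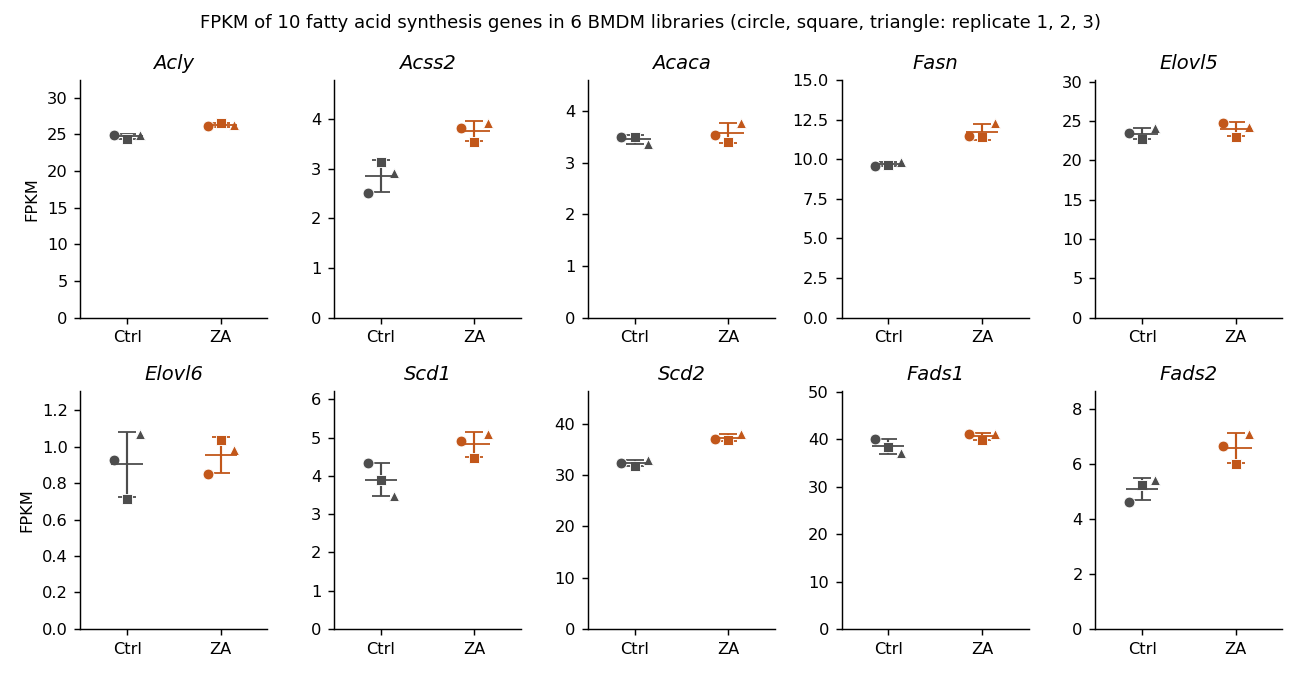
FPKM (vertical axes, from 0) of each of the 10 members in the 3 Ctrl (grey) and 3 ZA (orange) libraries, with symbols for replicate 1 (circle), 2 (square) and 3 (triangle), the mean as a horizontal line and the SD as error bars. The groups do not meet in Acly, Acss2, Fasn, Scd1, Scd2 and Fads2, and they overlap in Acaca, Elovl5, Elovl6 and Fads1.

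Of the enzymes that supply acetyl-CoA, Acly had an FPKM of 24.9, 24.3 and 24.9 in Ctrl 1, 2 and 3 and of 26.1, 26.6 and 26.3 in ZA 1, 2 and 3. The ZA libraries were all above the Ctrl libraries, but by a small step, from 24.7 ± 0.360 to 26.3 ± 0.265 (SD, n = 3). The log2 difference of Acly was 0.087 (standard error 0.026, adjusted p = 0.243 from limma). Acss2 had an FPKM of 2.52, 3.15 and 2.92 in Ctrl and of 3.82, 3.54 and 3.94 in ZA, without overlap, at 297 to 470 fragments per library. Its mean was 31.5% higher in ZA, the largest percent difference among the members, with a log2 difference of 0.30 (standard error 0.067, adjusted p = 0.113 from limma). Neither gene passed the test over all genes. Exons of Acss2 overlap Gss and Ggt7 on the opposite strand, and since the strand setting of the counting is not given, reads of the overlap cannot be told apart. Gss had a mean FPKM of 6.62 in Ctrl and 6.28 in ZA, and 1.32% of the 150-base stretches of Acss2 are shared with other genes.

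Acaca, the rate-limiting carboxylase, and Fasn, which uses its product, stood apart from each other. Acaca had an FPKM of 3.50, 3.51 and 3.36 in Ctrl and of 3.54, 3.40 and 3.78 in ZA, with overlapping groups. Its log2 difference was 0.038 (95% confidence interval -0.067 to 0.14, adjusted p = 0.777 from limma), and 18.4% of its 150-base stretches also occur in the gene Gm5182, so that its reads are less certain. Fasn had an FPKM of 9.57, 9.65 and 9.83 in Ctrl and of 11.5, 11.4 and 12.3 in ZA. The lowest ZA library was 15.7% above the highest Ctrl library, and the Ctrl libraries were within a coefficient of variation of 1.38%. The mean of Fasn rose by 21.0%, from 9.68 ± 0.133 to 11.7 ± 0.520 (SD, n = 3), with a log2 difference of 0.25 (standard error 0.038, adjusted p = 0.0487 from limma). This call rested on all 6 libraries, since the adjusted p from limma was 0.152, 0.200 and 0.105 without Ctrl 1, 2 and 3, and 0.0562, 0.183 and 0.134 without ZA 1, 2 and 3, with log2 differences between 0.22 and 0.27.

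Of the elongases, Elovl5, which lengthens polyunsaturated chains, had an FPKM of 23.5, 22.7 and 24.1 in Ctrl and of 24.8, 23.0 and 24.2 in ZA, with overlapping groups. Its log2 difference was 0.035 (95% confidence interval -0.050 to 0.12, adjusted p = 0.747 from limma). Elovl6, which lengthens palmitate to stearate, had an FPKM of 0.928, 0.711 and 1.07 in Ctrl and of 0.848, 1.04 and 0.981 in ZA. These values rest on 176 to 266 fragments per library, the groups overlap, and the mean of 0.929 over the 6 libraries was below the minimum for the test. An antisense gene that overlaps Elovl6, Gm35986, was at most at an FPKM of 0.0356. Neither elongase showed a difference larger than the spread between replicates.

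The stearoyl-CoA desaturases Scd1 and Scd2 make monounsaturated fatty acids such as oleate, and in these macrophages Scd2 was the main form per length, with Scd1 at 9.56% to 11.8% of their summed FPKM in Ctrl and 10.8% to 11.8% in ZA. Scd2 had an FPKM of 32.3, 31.8 and 32.9 in Ctrl and of 37.1, 36.8 and 38.0 in ZA. All ZA libraries were above all Ctrl libraries, and the coefficient of variation was 1.60% in Ctrl and 1.65% in ZA. The mean of Scd2 rose by 15.4%, from 32.3 ± 0.519 to 37.3 ± 0.616 (SD, n = 3), with a log2 difference of 0.20 (standard error 0.026, adjusted p = 0.0449 from limma). It ranked 11 by p-value among all genes tested. Without Ctrl 1, 2 and 3 its adjusted p from limma was 0.133, 0.200 and 0.0779, and without ZA 1, 2 and 3 it was 0.0518, 0.161 and 0.128, so that this call too was lost without any of the libraries, at log2 differences between 0.19 and 0.21.

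Scd1 had an FPKM of 4.33, 3.89 and 3.47 in Ctrl and of 4.91, 4.46 and 5.10 in ZA. The groups did not overlap, but the step from the highest Ctrl to the lowest ZA library was 3.07%. Its mean was 23.7% higher in ZA, with a log2 difference of 0.25 (standard error 0.070, adjusted p = 0.209 from limma), so that a difference of the same size as that of Fasn did not pass, with a coefficient of variation of 10.99% in Ctrl. Within Ctrl, Scd1 and Fads1 followed the order of the summed stromal markers, which were 32.8, 25.4 and 18.3 in Ctrl 1, 2 and 3. Fasn and Fads2 ran in the reverse order within Ctrl, and Acly, Acss2, Acaca, Elovl5, Elovl6 and Scd2 in neither. With 3 libraries many genes follow an order or its reverse, and their share was not counted over all genes tested. Within ZA, where the markers were 23.6, 20.5 and 16.6, none of the members followed either order. The part of stromal cells in the values of Scd1 and of the other members was not tested. Scd3 and Scd4, the neighbouring genes on chromosome 19, had mean FPKM values of at most 0.00233 and 0.0364 in a group, and 0.739% of the stretches of Scd1 are shared with Scd3.

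Fads1 and Fads2, the front-end desaturases for arachidonic and docosahexaenoic acid, are neighbours on chromosome 19 with Fads3 next to Fads2. Fads1 was the most abundant member, with an FPKM of 40.2, 38.4 and 37.1 in Ctrl and of 41.1, 39.9 and 41.1 in ZA, and its groups overlapped. Its log2 difference was 0.077 (standard error 0.033, adjusted p = 0.405 from limma). Fads2, which acts before Fads1, had an FPKM of 4.63, 5.23 and 5.41 in Ctrl and of 6.67, 6.02 and 7.10 in ZA, at 561 to 870 fragments. The lowest ZA library was 11.3% above the highest Ctrl library, and the mean was 29.6% higher. The log2 difference of Fads2 was the largest of the members tested, at 0.32 (standard error 0.067, adjusted p = 0.109 from limma). It passed in 1 of 14 alternatives, a weighted fit of the recovered fragments with limma's voom (adjusted p = 0.0396), and over all 14 the adjusted p ran up to 0.318. Fads3 had a mean FPKM of 2.51 in Ctrl and 2.47 in ZA.

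**Figure D2:**
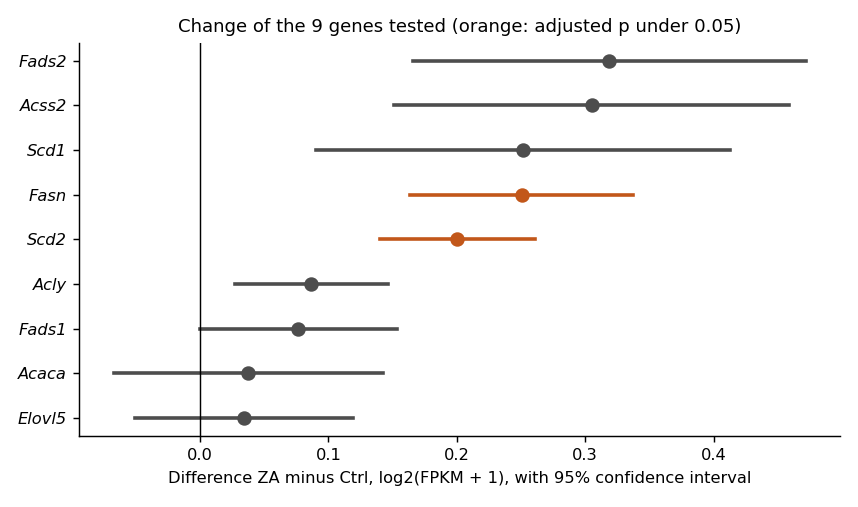
Difference between ZA and Ctrl on the log2(FPKM + 1) scale (horizontal axis) for the 9 members tested, with the 95% confidence interval from limma as a bar and the genes with an adjusted p under 0.05 in orange. The values run from 0.035 for Elovl5 to 0.32 for Fads2, and Scd2 and Fasn have narrower intervals than Scd1, Acss2 and Fads2.

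Whether 2 enzymes of the same or of successive steps moved by the same factor was asked with the ratio of their FPKM within each library, which does not depend on the scaling of the library. Acly was 8.67 times as abundant per length as Acss2 in Ctrl and 6.995 times in ZA, a log2 difference of -0.31, with all ZA ratios below all Ctrl ratios. The ratio of Fasn to Acaca was 2.80 in Ctrl and 3.28 in ZA, so that the log2 ratio of Acaca to Fasn differed by -0.23, again without overlap. The ratio of Fads1 to Fads2 was 7.58 in Ctrl and 6.18 in ZA, a log2 difference of -0.30 without overlap. For these 3 pairs the exact two-sided permutation test gave p = 0.1, the smallest p that 3 against 3 libraries allow, and 0.167 after Benjamini-Hochberg adjustment over the 5 pairs. This permutation test therefore cannot reach 0.05 with 3 libraries a group.

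The 2 other pairs overlapped between the groups. The ratio of Scd2 to Scd1 was 8.32 in Ctrl and 7.74 in ZA, a log2 difference of 0.10 in the ratio of Scd1 to Scd2 (exact permutation p = 0.7). The ratio of Elovl5 to Elovl6 was 26.3 in Ctrl and 25.2 in ZA, a log2 difference of -0.061 (exact permutation p = 0.7), and its sign turned without Ctrl 2 (0.079) or without ZA 2 (0.033). A p of this size does not show that the genes of these pairs moved alike.

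**Figure D3:**
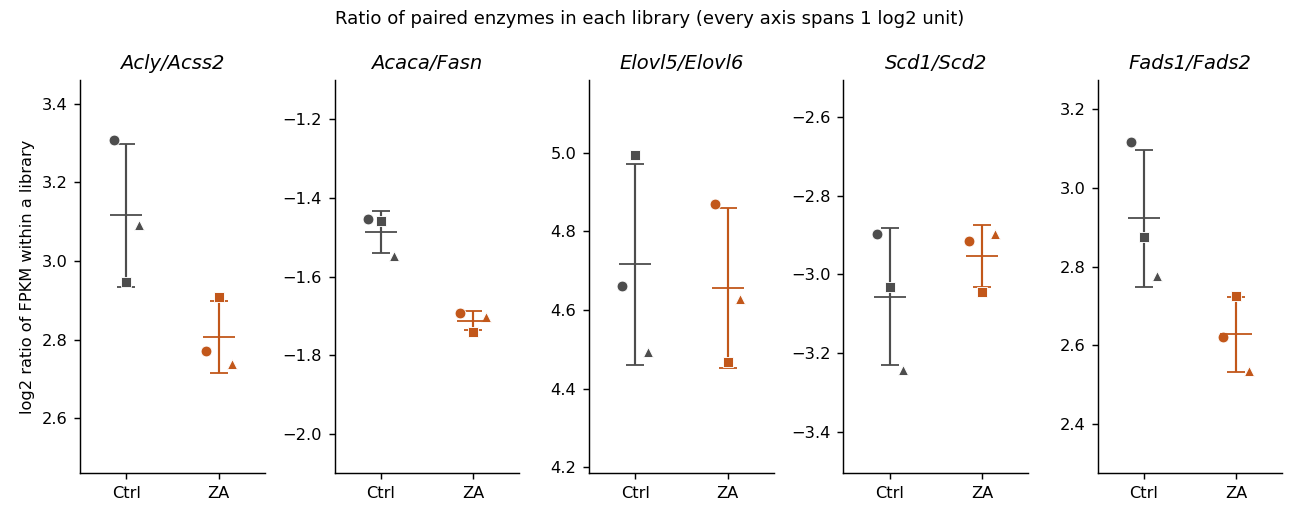
Log2 ratio of the FPKM of 2 members within each library (vertical axes, each spanning 1 log2 unit) for 5 pairs, in Ctrl (grey) and ZA (orange), with symbols for replicate 1 (circle), 2 (square) and 3 (triangle) and the mean and SD. The ZA ratios are all below the Ctrl ratios for Acly/Acss2, Acaca/Fasn and Fads1/Fads2, and they overlap for Elovl5/Elovl6 and Scd1/Scd2.

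Within ZA most members followed the same order of libraries. Of the 10, ZA 3 was the highest of all libraries in 7, and ZA 2 was the lowest of the ZA libraries in 8. These counts were not made over all genes tested, so they do not show an order particular to the members. In Ctrl, Ctrl 1 had the highest level of Scd1, Fads1 and, narrowly, Acly and the lowest of Acss2, Fasn and Fads2. Over the 6 libraries, the correlation of a member with the mean standardised profile of the other members tested was 0.96 for Fasn, 0.95 for Scd2, 0.90 for Fads2, 0.87 for Scd1, 0.84 for Acss2, 0.81 for Acly, 0.76 for Fads1, 0.62 for Acaca and 0.48 for Elovl5. These values describe 6 points in 2 groups that share their libraries. The genes outside the members with the most similar profiles were Oas1c (Pearson r = 0.990 over the 6 libraries), Borcs6, Ids, Plxnc1 and Pld4 (0.988 to 0.989). They were picked as the highest correlations among all other genes tested, so that a high r follows from the choice. No link between these genes and the members was tested. Oas1c, an interferon-inducible gene of the oligoadenylate synthetase family, went from 2.01 ± 0.0377 to 2.64 ± 0.202 FPKM (SD, n = 3) between Ctrl and ZA, at an adjusted p of 0.0938 from limma.

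The other genes of cytosolic fatty acid synthesis were higher in mean in 4 of 4 tested of 8 listed, with a median log2 difference of 0.084. None passed the test over all genes, while 3 had an unadjusted p-value under 0.05, all higher. Over all genes tested, 7.5% were higher and 4.85% lower at that p-value, and these shares stand beside the counts of the later lists too. Aacs, the cytosolic acetoacetyl-CoA synthetase, had an FPKM of 10.8, 10.8 and 9.83 in Ctrl and of 11.7, 12.4 and 12.6 in ZA, with a log2 difference of 0.21 (adjusted p = 0.110 from limma, and 0.0431 with voom). Slc25a1, the mitochondrial citrate carrier, had a log2 difference of 0.099 (adjusted p = 0.258 from limma). Thrsp and Olah were at 0 in all libraries.

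The genes around the elongases and desaturases, those of the remaining elongation cycle and of cytochrome b5 among them, gave 6 higher and 4 lower of 10 tested of 18 listed, with a median of 0.013 and none at an unadjusted p-value under 0.05. Tecr, the reductase of the last step of elongation, had a log2 difference of 0.083 and Hacd4, a dehydratase, one of 0.042. Mitochondrial fatty acid synthesis, a separate pathway that makes the precursor of lipoic acid, gave 4 higher and 2 lower of 6 tested, with a median of 0.078, and 1 gene, higher, at an unadjusted p-value under 0.05. The largest moderated statistics were those of Mecr (log2 difference 0.095, adjusted p = 0.401 from limma) and Hsd17b8 (0.11, adjusted p = 0.450 from limma).

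Downstream, the 11 of 13 genes of fatty acid activation and binding tested had a median of 0.022, and the 12 of 16 of glycerolipid synthesis and lipid droplets one of 0.0066, with none passing the test over all genes. At an unadjusted p-value under 0.05 were 1 gene of the first list, higher, and 2 of the second, 1 in each direction. Acsl5, an acyl-CoA synthetase, had an FPKM of 38.7, 38.1 and 38.4 in Ctrl and of 40.4, 40.4 and 40.6 in ZA (adjusted p = 0.256 from limma). Acsl3, another of this family, had a log2 difference of 0.067 (adjusted p = 0.519 from limma). Agpat2, an acyltransferase of phosphatidic acid synthesis, was at a mean FPKM of 25.7 in Ctrl and 28.0 in ZA (adjusted p = 0.203 from limma), and Plin2, a lipid droplet coat protein, at 232.8 and 218.0 (adjusted p = 0.235 from limma). The 2 lay in opposite directions without overlap between the groups.

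Fatty acid oxidation, the opposing pathway, had 8 genes higher and 13 lower in mean of 21 tested of 22 listed, with a median log2 difference of -0.010 and none passing the test over all genes, while 2 had an unadjusted p-value under 0.05, both lower. The 2 with the largest moderated statistic were the subunits of the mitochondrial trifunctional protein. Hadhb had an FPKM of 12.8, 13.2 and 13.0 in Ctrl and of 11.8, 11.6 and 11.4 in ZA, without overlap, with a log2 difference of -0.15 (adjusted p = 0.0948 from limma, and 0.0277 with voom). Hadha had a log2 difference of -0.072 (adjusted p = 0.354 from limma), also without overlap.

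Of 21 regulators of lipid synthesis listed, 18 were tested, with 10 higher and 8 lower in mean, a median of 0.014, and 4 higher and 1 lower at an unadjusted p-value under 0.05. Insig1, which retains the SREBP escort protein in the endoplasmic reticulum and is itself an SREBP target, was the single gene of this list that passed. In Ctrl its FPKM was 37.4, 37.5 and 36.7, against 42.7, 43.9 and 43.4 after ZA, and its level rose by a log2 difference of 0.21 (standard error 0.025, adjusted p = 0.0304 from limma). This call held without ZA 1 (adjusted p = 0.0331 from limma), and it was lost without any other library (0.0754 to 0.183). Srebf2, the SREBP of sterol synthesis, had a log2 difference of 0.11 (adjusted p = 0.2498 from limma). Srebf1, the SREBP of fatty acid synthesis, was at a mean FPKM of 16.98 in Ctrl and 17.2 in ZA, and Nr1h3, which codes for LXR-alpha, at 26.3 in both.

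The 20 sterol synthesis genes analysed here, another SREBP-dependent group, were higher in mean in 18, with a median log2 difference of 0.25. Of the 20, 6 passed, all higher, where 0.204% of all genes tested passed higher. At an unadjusted p-value under 0.05 were 18, all higher, where 7.5% of all genes tested were higher. Idi1, Fdps, Sqle, Lss, Cyp51 and Msmo1 rose, with log2 differences between 0.26 for Lss and 0.43 for Idi1 (adjusted p from limma between 0.0304 and 0.0490). Fdps, which codes for the enzyme that ZA inhibits, had a mean FPKM of 30.5 in Ctrl and 39.4 in ZA. The log2 differences of Fasn and Scd2 lie below those of the 6 sterol genes, and this distance was not tested. LXR target genes outside fatty acid synthesis had 1 higher and 5 lower in mean of 6 tested, with a median of -0.11 and none passing. An unadjusted p-value under 0.05 was found in 4, all lower, where 4.85% of all genes tested were lower. Every ZA library was below every Ctrl library in 4 of these LXR targets, as in 6.76% of all genes tested. Among the LXR targets, Mylip, a ubiquitin ligase, had a log2 difference of -0.12 (adjusted p = 0.152 from limma). Abca1, the cholesterol exporter, had one of -0.15 (adjusted p = 0.170 from limma, and 0.0396 with voom).

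**Figure D4:**
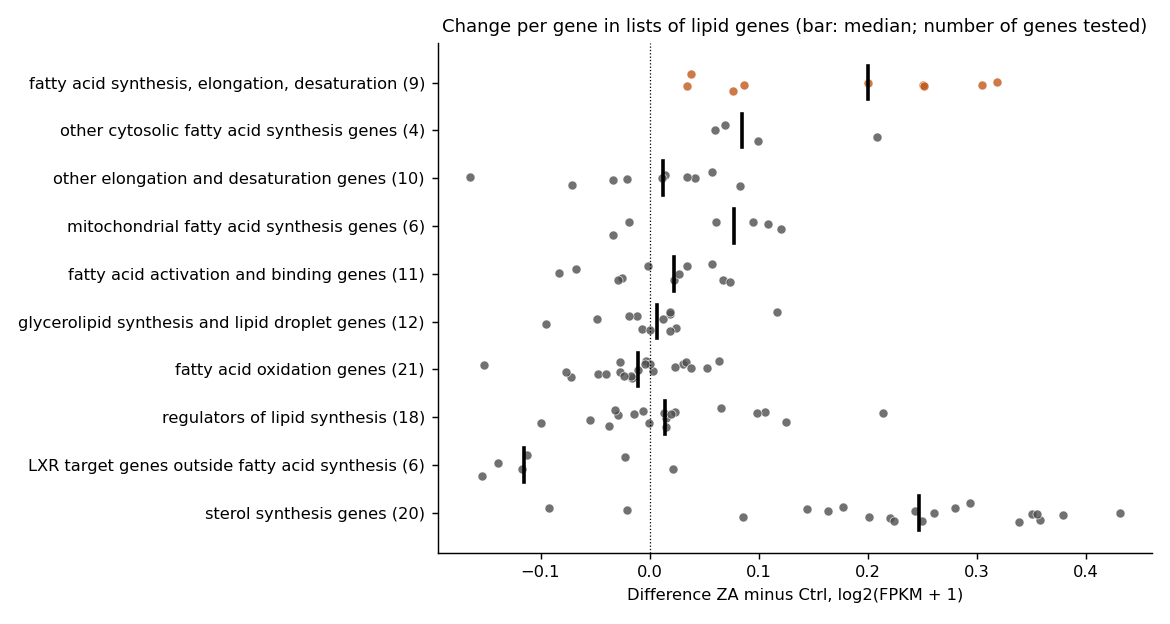
Difference between ZA and Ctrl on the log2(FPKM + 1) scale (horizontal axis) for each gene tested in the lists of lipid genes, with 1 point a gene, the members in orange and the median of a list as a black bar. The 9 members have a median of 0.20 and the 20 sterol genes one of 0.25, while the medians of oxidation genes (-0.010) and glycerolipid genes (0.0066) lie near 0.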

How the data were processed

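RNA of 6 BMDM libraries was sequenced as 150 bp paired-end reads, and the labels name a VAHTS and a SMARTER library kit. The authors deposited 1 table of FPKM values, with 0 columns not mapped to a sample by its label. The submitters' processing notes name the build mm9, and the aligner, counter, annotation and strand setting are not given in the sources used here.

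Separators were intact in 11 of the 35434 rows and lost between symbol and values elsewhere. Rows were cut where each value was a whole number of fragments at 1 gene length and the library's total, which restored 35363 rows with 99.71% of the fragments, all 11 intact rows identically, and left 71 rows out. The deposited values carry no further scaling between libraries. Recovered fragments were used for depth and in the voom alternative.

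The 9800 genes whose FPKM averaged 1 or more were tested on log2(FPKM + 1) by limma's two-sided moderated test (version 3.58.1, R 4.3.3, trend in eBayes), with p-values adjusted after Benjamini and Hochberg and a threshold of 0.05, so that changes of low genes are understated. The fit and the cutting of rows were tested on simulated data. Ratios within a library were compared with exact permutation tests. Genes named are the 10 members, from every other list the genes that passed and the 2 with the largest moderated statistic, and the 5 genes with the profile most like that of the members. The further genes named for context, Fads3, Scd3, Scd4, Srebf1, Nr1h3, Gss, Ggt7, Gm5182, Gm35986, Thrsp, Olah and markers, fall outside this rule and were chosen after their values were seen. Some genes under the rule are not reported here. Members and lists were chosen with earlier results of these data known. Stretches shared between genes were counted in GENCODE transcripts and promoters were taken from RefSeq, in Python 3.11.15 (pandas 2.3.3, NumPy 2.4.6, and Matplotlib 3.10.9 for figures). Alternatives were a pseudocount of 0.1, no filter or a mean FPKM of 5, centring, quantile normalization, no variance trend, a replicate block, voom and leaving out each library.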

Additional observations from a re-analysis of the deposited data

How the results depend on the processing

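Each of the 9 members tested kept its sign in every alternative that tested it (with a minimum mean FPKM of 5, Acss2, Acaca and Scd1 were not tested), while the calls did not hold throughout. Of all genes tested, 36 passed (20 higher, 16 lower), against 29 after centring on the median (11 and 18), 20 after quantile normalization (10 and 10), 132 with voom, 1 without a filter, 1 without a variance trend, and between 0 (without ZA 2) and 25 (without ZA 1) when a library was left out. At an unadjusted p under 0.05 there were 735 higher and 475 lower genes, against 508 and 664 after centring and 574 and 589 after quantile normalization. Of the members, 2 passed, against 3 with voom, 1 after centring, 1 after quantile normalization, 0 without a filter, 0 without a variance trend, and 0 when any of the 6 libraries was left out. Fasn had an adjusted p of 0.0503 from limma after centring and of 0.0626 after quantile normalization, and Scd2 passed in both. Over all alternatives the adjusted p ran from 0.00288 to 0.228 for Fasn, past the threshold in 4 of 14, and from 0.00288 to 0.200 for Scd2, past it in 6 of 14. The 6 sterol genes and Insig1 passed in between 2 (Lss, of 13) and 8 (Fdps and Msmo1, of 14) alternatives. The median log2 difference of the members was 0.14 without a filter and 0.14 with a minimum mean FPKM of 5, since other members enter it, and 0.19 to 0.21 when a library was left out. The difference between ZA and Ctrl in the log2 ratio of Elovl5 to Elovl6 ran from -0.17 to 0.079 when a library was left out, with 0.079 without Ctrl 2 and 0.033 without ZA 2. Apart from these effects of construction, the cause was not tested.

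Between a Ctrl and a ZA library of the same number, departures from the group mean correlated across genes at 0.284, 0.0393 and 0.280 (numbers 1, 2 and 3). Libraries of different numbers gave between -0.297 (Ctrl 1 and ZA 3) and 0.0334 (Ctrl 2 and ZA 3). Each Ctrl library thus correlated best with the ZA library of its own number, but number 2 only narrowly (0.0393 against 0.0334 with ZA 3). Departures from a group mean cancel out over the libraries of the group. These correlations therefore depend on each other and are not separate matches, so that they give a weak hint at most. Whether libraries of the same number share a culture or a batch is not given and was not tested. In the fit with a replicate block 78 genes passed, 41 higher and 37 lower, and 2 members, Fasn (adjusted p = 0.0388 from limma) and Scd2 (0.0318). Depth limits Elovl6 most, with as few as 176 fragments.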
